A study of Rattus norvegicus with 3 samples.

Results

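Pericytes and vascular smooth muscle cells, together called mural cells, wrap the endothelial tube of small and larger vessels. In the developing retina, endothelial sprouts secrete PDGF-B, which is encoded by Pdgfb and recruits mural cells that carry its receptor PDGFRβ, encoded by Pdgfrb. The mural cells then contract, set vessel tone through ATP-sensitive potassium channels and keep the capillary wall stable. The genes described here are 10 genes of this system, taken by symbol from the 18425 genes of the deposited table: the receptor Pdgfrb and its ligand Pdgfb, the surface proteins Cspg4 and Anpep, the G protein regulator Rgs5, the channel subunits Kcnj8 and Abcc9, and the contractile and filament genes Acta2, Tagln and Des. All 10 were found, and all 10 had a mean of at least 10 reads per library.

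The libraries came from wild-type Sprague-Dawley rats that received 1 µl into the vitreous at P1, and their retinas were harvested at P4. One group received citrate buffer (pH 4.5), one received saline and one received 10 µg of streptozotocin (STZ), a DNA-alkylating analog of N-acetyl glucosamine that had been made up in citrate buffer. The citrate buffer therefore served as the vehicle control and saline as a second injection control. Each group is 1 library of total retinal RNA, and the number of retinas behind a library is not given in the sources used here. In the study's tests of retinal function, STZ and buffer went into opposite eyes of one animal. Whether the buffer and STZ libraries also came from fellow eyes is not given. No difference below has a replicate check, and no p-value was computed.

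The libraries were of nearly equal depth, between 21977876 and 22031287 reads. Where 3 values follow each other below, they stand in the order buffer, saline, STZ. All 10 genes chosen to check the tissue, which are retinal neuron, glia and progenitor genes, passed the minimum and summed to 66233, 64056 and 65248 reads. Of these, 6 were below and 4 above buffer in STZ by more than counting error. At such depths small shifts pass, for example Pax6 with a ratio of 1.03 against buffer, and no share of all genes at this depth was computed. Only Rcvrn, with 1087, 1184 and 1775 reads, had a fold, (FPKM + 1)/(FPKM + 1), past 0.65 or 1.54 against buffer, at 1.62. The libraries differed in genes of neighbouring tissues. The lens crystallins summed to 232, 728 and 4422 reads, and 12 of 12 crystallins over the minimum were above buffer in STZ by more than counting error. The most abundant of those with a fold, (FPKM + 1)/(FPKM + 1), above 1.54 against both controls were Cryaa with 55, 211 and 928 reads, Cryba1 with 22, 62 and 731, Crygf with 27, 66 and 582 and Crygd with 25, 56 and 519, of which Crygf and Crygd have fractional counts. The ciliary, iris and pigment epithelium genes summed to 3146, 10131 and 3222 reads, so that the saline library held the most, and 7 of 9 were below saline in STZ. The blood genes summed to 1366, 1919 and 1008 reads, with 3 of 4 below buffer and 4 of 4 below saline in STZ. Hba-a2 with 346, 506 and 223 reads had a fold below 0.65 against both, while Hbb-b1 with 34, 116 and 69 reads was above buffer with a ratio of 2.03 (1.33 to 3.15), and both have fractional counts.

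The proximal promoters show how the members differ in sequence, for 1 gene that was lower in STZ (Acta2) and 2 whose intervals included no change (Pdgfb and Des). The sequences are the 250 bases before the annotated start in RefSeq's rat assembly GRCr8, which is a later build than the rn6 build named in the submitters' processing notes. The promoter table held 8 of the 10 members, and not Pdgfrb and Tagln. Capitals mark CArG boxes, the binding motif of serum response factor, which drives contractile genes. The motif was searched as CC, then 6 bases of which at most 1 is C or G, then GG, and it reads the same on both strands. The Acta2 promoter lies at chr1:241172504-241172753 on the minus strand, that of Pdgfb at chr7:113438344-113438593 on the minus strand, and that of Des at chr9:84299376-84299625 on the plus strand.
Acta2: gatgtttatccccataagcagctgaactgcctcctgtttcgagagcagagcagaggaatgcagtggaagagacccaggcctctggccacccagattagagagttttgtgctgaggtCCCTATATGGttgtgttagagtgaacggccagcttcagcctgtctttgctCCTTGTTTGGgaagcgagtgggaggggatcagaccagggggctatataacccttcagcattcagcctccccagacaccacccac
Pdgfb: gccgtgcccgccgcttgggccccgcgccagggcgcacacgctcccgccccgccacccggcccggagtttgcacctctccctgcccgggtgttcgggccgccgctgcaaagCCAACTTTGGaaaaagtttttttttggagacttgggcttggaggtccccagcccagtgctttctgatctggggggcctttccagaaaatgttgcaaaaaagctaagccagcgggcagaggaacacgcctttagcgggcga
Des: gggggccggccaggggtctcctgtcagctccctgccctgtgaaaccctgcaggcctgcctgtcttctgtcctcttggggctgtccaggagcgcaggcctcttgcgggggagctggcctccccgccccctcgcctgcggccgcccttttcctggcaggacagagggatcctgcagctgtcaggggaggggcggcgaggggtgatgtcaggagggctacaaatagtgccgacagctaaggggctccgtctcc
Acta2 held 2 boxes, CCCTATATGG starting 134 bases and CCTTGTTTGG starting 84 bases before the start. Pdgfb held 1 box, CCAACTTTGG, 140 bases before the start, and the Des window held none. No box was matched in the windows of Cspg4, Rgs5, Abcc9, Kcnj8 and Anpep either. Of 33469 rat promoters of the same length, 8.08% held at least 1 such box and 501 held one with all 6 central bases A or T, a form that no member window held.

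Reads of the members were few in every library. The level per length is given as TPM, a share of transcripts that can be compared between genes. In the buffer library the members ranged from 0.29 TPM (Anpep) to 15.27 TPM (Rgs5), while the median over all 18425 genes was 14.4 TPM. The Rgs5 level rests on a short gene model, since its count and FPKM imply a length of 315 bases, whereas the other members imply 822 to 7768 bases. Below Rgs5 stood Pdgfb at 4.04, Pdgfrb at 3.5, Acta2 at 2.45, Des at 1.79, Tagln at 1.63, Abcc9 at 1.47 and Kcnj8 at 1.32 TPM, and the counting interval of each of these overlapped that of the next one above, apart from the step between Rgs5 and Pdgfb. Cspg4 at 0.47 TPM was clear of Kcnj8 above it and overlapped Anpep below it. In the STZ library the order changed to Rgs5 at 6.18, Pdgfb at 4.03, Tagln at 3.35, Des at 2.01, Pdgfrb at 1.28, Kcnj8 at 0.79, Acta2 at 0.69, Anpep at 0.55, Abcc9 at 0.46 and Cspg4 at 0.21 TPM. Each neighbour in that order overlapped the next.

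Pdgfrb, Cspg4, Rgs5, Acta2 and Abcc9 were lower in STZ than in each control by more than counting error, to between 0.281 and 0.499 of the control, and Kcnj8 was lower than saline alone. For Pdgfb, Des and Anpep the intervals against both controls included 1, and Tagln was higher than buffer and level with saline. Each comparison was read in 2 ways. The count ratio is the gene's share of all reads in one library over its share in the other, with an exact 95% interval. The interval covers counting error only, because each group is 1 library and holds no spread between animals or preparations. It also treats reads as separate molecules, although the libraries carry no molecular identifiers, so it may be too narrow even for counting error. The fold is (FPKM + 1)/(FPKM + 1), where FPKM is fragments per kilobase of gene model, scaled to library size, with thresholds of 0.65 and 1.54. Because STZ against buffer and STZ against saline share the STZ library, a chance value in that library enters both. In bulk retina, fewer mural cells and less RNA per mural cell cannot be told apart. Nor can either be told apart from a change in reads of other cells that use these genes, or in the tissue dissected.

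By the counting interval, 5 of 10 members were lower in STZ than in buffer and 1 was higher, where 8.49% of the 3192 genes in the members' range of mean count (16.3 to 150 reads) were lower and 20.4% were higher. Against saline 6 of 10 were lower and 0 were higher, beside 14.2% and 17.8% of these genes. Lower than both controls were 5 of 10 members, beside 5.98% of these genes. In saline against buffer, 0 of 10 were lower and 1 (Tagln) was higher, beside 3.76% and 12.1%. The ratios of the other members in that control comparison lay between 0.744 (Des) and 1.73 (Anpep), with intervals that included 1. These shares cover the members' range of mean count alone. Several genes of the lists below have more reads, where smaller shifts pass the interval. An example is Slc7a5 of the endothelial list, with a ratio of 1.09 (1.05 to 1.14) against buffer. No share of all genes was computed at such depths.

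By the fold, 3 of 10 members were below 0.65 in STZ against buffer, namely Pdgfrb, Rgs5 and Acta2, beside 1.15% of the 14886 genes with the minimum mean count. Against saline 2 of 10 were below, Rgs5 and Acta2, beside 1.95%. In saline against buffer 0 of 10 were below, beside 0.443%. Above 1.54 stood 0 of 10 members when STZ was set against buffer (2.58% of genes), against saline (2.37%), or when saline was set against buffer (1.01%). The median log2 count ratio of the members was -0.93 for STZ over buffer, -1.06 for STZ over saline and -0.06 for saline over buffer. Over all genes with the minimum the same medians were 0.04, 0.02 and 0.02.

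**Figure D1:**
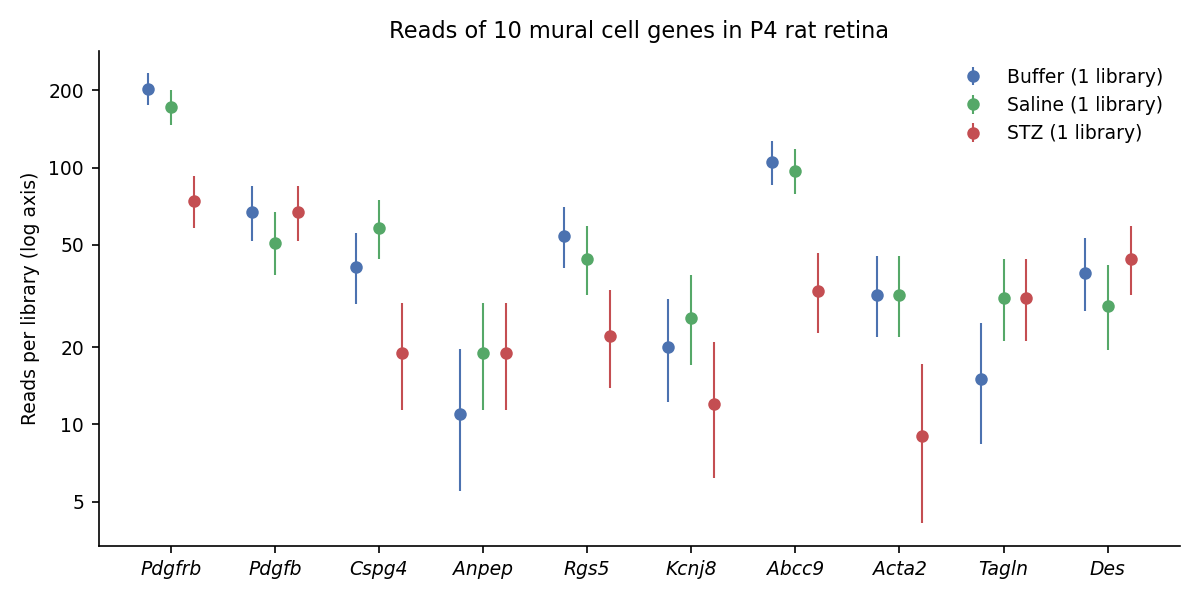
Reads per library (log axis) for the 10 members, ordered by role, with 1 point per library (buffer, saline, STZ) and bars for the exact 95% Poisson counting interval. The STZ point of Pdgfrb (74 reads), Cspg4 (19), Rgs5 (22), Kcnj8 (12), Abcc9 (33) and Acta2 (9) is the lowest of the 3, while Pdgfb (67) and Des (44) in STZ are at or above both controls.

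The receptor Pdgfrb (gene ID 24629), the tyrosine kinase by which pericytes answer PDGF-B, had 203, 172 and 74 reads, or 1.79, 1.51 and 0.65 FPKM. The 2 controls differed by less than counting error, with a saline to buffer ratio of 0.848 (0.688 to 1.04). Its STZ to buffer ratio was 0.364 (0.275 to 0.477) and its STZ to saline ratio 0.429 (0.322 to 0.567). The folds were 0.591 and 0.657, so that the gene lay on either side of 0.65 depending on the control.

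The ligand Pdgfb (24628), made in the retina mainly by endothelial cells and some neurons, had 67, 51 and 67 reads. Its ratio was 0.998 (0.701 to 1.42) against buffer and 1.31 (0.897 to 1.93) against saline. Set against each other per length, Pdgfb stood at 1.15 times the TPM of Pdgfrb in buffer, 1.05 times in saline and 3.15 times in STZ. The ligand and receptor were thus at near-equal levels in both controls and apart in STZ.

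The other genes of the PDGF family numbered 5, and 1 was below and 1 above buffer in STZ by the counting interval, with the same numbers against saline. By the fold only Pdgfra passed, below both controls. Pdgfra, the receptor of PDGF-A that marks retinal astrocytes and mesenchyme, had 650, 581 and 269 reads. Its ratio was 0.413 (0.357 to 0.477) against buffer, and it stood at 2.60, 2.77 and 2.92 times the TPM of Pdgfrb in buffer, saline and STZ. Its ligand Pdgfa, which retinal neurons supply to astrocytes, went the other way, with 83, 99 and 133 reads and a ratio of 1.6 (1.21 to 2.13) against buffer. The intervals of Pdgfc, Pdgfd and Pdgfrl against buffer each included 1. Both receptors were thus lower in STZ than in buffer, and neither Pdgfa nor Pdgfb was.

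Cspg4 (81651) encodes NG2, a proteoglycan on the pericyte surface that oligodendrocyte precursors also carry. It had 41, 58 and 19 reads. The ratio was 0.463 (0.254 to 0.815) against buffer and 0.327 (0.184 to 0.557) against saline. Its folds of 0.895 and 0.828 stayed near 1, because its FPKM of 0.24, 0.34 and 0.11 are small beside the 1 that is added.

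Anpep (81641) encodes aminopeptidase N, or CD13, found on pericytes and also on myeloid cells. It had the fewest reads of the members, with 11, 19 and 19. The STZ to buffer ratio was 1.72 (0.780 to 4.01) and the STZ to saline ratio 0.998 (0.50 to 1.99). With 11 reads in buffer, STZ would have had to hold 2 reads or fewer, a ratio of 0.182, for the interval to lie below 1. A decrease of the size seen in Pdgfrb was therefore not detectable against buffer for this gene. The 12 myeloid and microglia genes summed to 1479, 1829 and 4111 reads, with 12 of 12 above both controls in STZ. The most abundant of the 9 with a fold above 1.54 against both were Csf1r with 449, 540 and 905 reads, C1qb with 205, 288 and 722, C1qa with 208, 255 and 602 and C1qc with 149, 216 and 591. Their part in the Anpep reads was not tested.

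Rgs5 (54294), which speeds the shut-off of G protein signaling and is among the most used pericyte markers, had 54, 44 and 22 reads. The ratio was 0.407 (0.236 to 0.679) against buffer and 0.499 (0.285 to 0.850) against saline. It was the only member with a fold below 0.5 in STZ against buffer, at 0.474, and its fold against saline was 0.564. It also had the highest FPKM of the members, 7.8 in buffer, and its folds stayed close to its ratios.

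Kcnj8 (25472) and Abcc9 (25560) encode Kir6.1 and SUR2, the pore and the sulfonylurea receptor subunit of the vascular ATP-sensitive potassium channel. They are neighbours on rat chromosome 4, with 0 protein-coding genes between them in RefSeq's table for GRCr8. Abcc9 had 105 reads in buffer, 97 in saline and 33 in STZ, with ratios of 0.314 (0.205 to 0.468) and 0.339 (0.221 to 0.508). Kcnj8 had 20, 26 and 12 reads. Its ratio was 0.599 (0.267 to 1.29) against buffer, which includes 1, and 0.460 (0.212 to 0.945) against saline, which does not. With both controls summed the ratio of Kcnj8 was 0.521 (0.251 to 0.999). At its depth in buffer a ratio of 0.399 or lower would have been needed.

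The paralogs of these 2 subunits, Kcnj11 and Abcc8, form the channel of pancreatic β-cells and neurons. Kcnj11 had 233, 252 and 179 reads, with a ratio of 0.767 (0.628 to 0.936) against buffer. Abcc8 had 194, 231 and 185 reads and a ratio of 0.952 (0.774 to 1.17). Per length, Abcc8 stood at 2.60 times Abcc9 in buffer, 3.36 times in saline and 7.89 times in STZ. Of the 4 channel subunits, Abcc9 and Kcnj11 were below buffer and all 4 below saline by the counting interval, with median ratios of 0.678 and 0.571, and 0 passed a fold threshold.

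**Figure D2:**
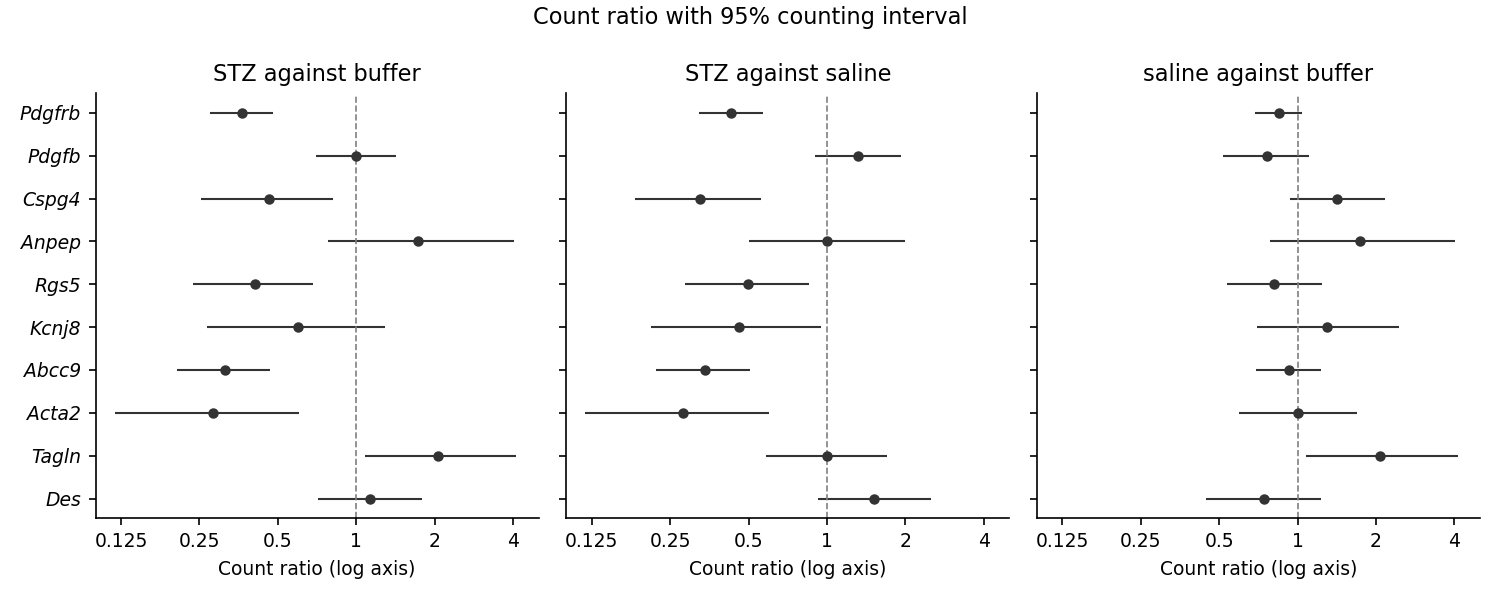
Count ratio (log axis) of each member for the 3 pairs of libraries, with the exact 95% counting interval as a bar and a dashed line at 1. Pdgfrb, Cspg4, Rgs5, Abcc9 and Acta2 lie wholly below 1 in both STZ panels, and only Tagln lies off 1 in saline against buffer.

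Acta2 (81633), the smooth muscle actin of arteriolar mural cells, had 32 reads in buffer, 32 in saline and 9 in STZ. It had the lowest ratio of the members, 0.281 (0.118 to 0.602) against buffer and 0.281 (0.118 to 0.601) against saline. This rank rests on 9 reads in STZ. The interval against buffer holds the ratios of Abcc9, Pdgfrb, Rgs5 and Cspg4, so their order is not resolved. Both folds were 0.600. The 2 controls held the same number of reads, and STZ lay below each.

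Tagln (25123) encodes SM22α, an actin-binding protein of smooth muscle. It had 15 reads in buffer, 31 in saline and 31 in STZ. Its ratio was 2.06 (1.08 to 4.11) in STZ against buffer, 2.07 (1.08 to 4.12) in saline against buffer and 0.998 (0.586 to 1.70) in STZ against saline. Buffer was thus the library apart, and the STZ and saline libraries held equal reads. With both controls summed the STZ ratio of Tagln was 1.35 (0.824 to 2.17), which includes 1. The folds against buffer were 1.49 in STZ and 1.49 in saline, both short of 1.54.

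Des (64362) encodes desmin, the intermediate filament of muscle and of many pericytes. It had 39 reads in buffer, 29 in saline and 44 in STZ. Its ratio was 1.13 (0.715 to 1.78) against buffer and 1.51 (0.926 to 2.51) against saline, and both intervals include 1. Per length, Tagln stood at 0.665, 1.38 and 4.86 times Acta2 in buffer, saline and STZ, and Des at 0.731, 0.545 and 2.91 times. The 3 contractile and filament members thus did not keep one ratio to each other across the libraries.

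The wider set of 16 smooth muscle contractile genes and their regulators held 12 over the minimum. Of these, 1 was below and 2 were above buffer in STZ by the counting interval, with a median ratio of 1.03, and 3 were below and 3 above saline, with a median ratio of 0.961. No gene of the list passed either fold threshold in STZ against buffer or saline. Skeletal muscle genes, which could come from eye muscle and also include users of Des, were few, with 6 of 15 over the minimum and sums of 184, 201 and 193 reads. Myog, the myogenic factor of skeletal muscle, was at 0, 1 and 0 reads. By the interval 1 of the 6 was above buffer, and 2 were below and 1 above saline. By the fold 1 was above buffer and 1 was below saline.

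**Figure D3:**
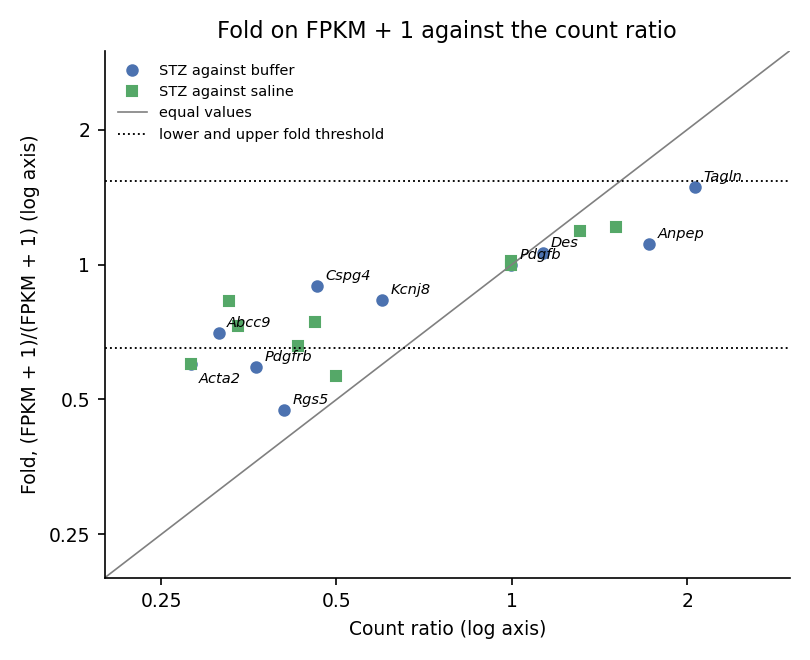
Fold on FPKM + 1 against the count ratio for the 10 members (both axes log), with circles for STZ against buffer, squares for STZ against saline, a line of equal values and dotted lines at 0.65 and 1.54. Members with low ratios lie above the line of equal values, for example Cspg4 in STZ against buffer with a ratio of 0.463 and a fold of 0.895.

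Of 22 further pericyte genes, 15 had the minimum mean count. Below buffer in STZ were 7 and above it 2 by the interval, with a median ratio of 0.900, and 6 were below and 3 above saline, with a median ratio of 0.879. By the fold 1 was below buffer and 1 below saline, and 0 against both. The first was Cd248, listed at 102, 0 and 0 reads and so at 0 in saline too. Cd248 is also among the 7 below buffer by the interval, and it has no ratio against saline, so the saline median leaves it out. The second was Zic1 with 241, 403 and 153 reads, which was above buffer in saline with a ratio of 1.67 (1.42 to 1.97). Notch3, the receptor through which mural cells mature, had 531, 524 and 479 reads and a ratio of 0.900 (0.794 to 1.02). Many genes of this list are also used by other retinal cells, and the list summed to 14094 reads in buffer against 587 for the 10 members. The median of this list was nearer to 1 than that of the members.

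The endothelial genes were lower in STZ beside the members. Of 22, 20 were over the minimum, and 16 were below buffer, 16 below saline and 15 below both by the interval, while 1 was above buffer. The median ratio was 0.400 against buffer and 0.475 against saline, beside 0.526 and 0.479 for the members. By the fold 6 were below buffer and 4 below saline. The 4 below both were Cldn5, a tight junction protein, with 188, 154 and 37 reads, the receptor Tie1 with 174, 144 and 43, the junctional cadherin Cdh5 with 119, 114 and 28, and Egfl7 with 59, 48 and 13. Pecam1, the platelet-endothelial adhesion molecule, had 40, 40 and 21 reads and a ratio of 0.524 (0.294 to 0.910) against buffer. Pdgfrb stood at 0.766, 0.670 and 1.20 times the TPM of Cdh5 in buffer, saline and STZ, and Pdgfb at 0.884, 0.703 and 3.77 times. The count ratio against buffer was 0.235 (0.150 to 0.357) for Cdh5 and 0.524 for Pecam1, on either side of the 0.364 of Pdgfrb. The direction for Pdgfrb therefore depends on the endothelial gene chosen. How far the lower mural reads follow the lower endothelial reads was not tested.

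Of 18 genes of endothelial to mural signaling, all over the minimum, 6 were below and 2 above buffer, and 8 below and 3 above saline by the interval, with median ratios of 0.982 and 0.977. By the fold 0 were below buffer and 1 below saline. Tek, the endothelial receptor of the angiopoietins, had 84, 79 and 24 reads and a ratio of 0.285 (0.173 to 0.453) against buffer, from counts that are fractional in the deposited table. Its activating ligand Angpt1, secreted by mural cells and others, had 48, 30 and 67 reads and ratios of 1.39 (0.948 to 2.06) against buffer and 2.23 (1.43 to 3.55) against saline. The context-dependent ligand Angpt2 had 110, 93 and 104 reads and a ratio of 0.944 (0.715 to 1.25). The receptor was lower in STZ by more than counting error, whereas Angpt1 was higher than saline and its interval against buffer included 1.

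Retinal astrocytes lay the bed on which retinal vessels spread. Of 10 astrocyte genes, 9 were over the minimum, with 7 below buffer and 8 below saline by the interval and median ratios of 0.616 and 0.521. By the fold 4 were below buffer and 5 below saline. The 3 below both were Pdgfra, S100b with 70, 87 and 35 reads, and the transcription factor Pax2 with 57, 53 and 10. Of the 9436 reads of this list in buffer, Nes held 4534 and Cd44 held 2877. The study used Sox9, which is in the list, as its marker of Müller glia, and Apln stands in the endothelial list too. The list therefore does not read astrocytes alone. Of 16 fibroblast and mesenchyme genes, 15 were found and 12 were over the minimum. By the interval 4 were below and 1 above buffer, and 8 below and 2 above saline, with median ratios of 0.871 and 0.526. By the fold 3 were below and 1 above buffer, and 6 below saline. The gene above buffer was Col1a2 in both readings. It was listed at 0 reads in buffer, 59 in saline and 104 in STZ, so only a bound is possible against buffer, and the median counts it as higher. The 2 below both were Pdgfra, which stands in this list too, and Mgp, a matrix protein also made by mural cells, with 42, 29 and 10 reads. In saline itself 5 fibroblast and mesenchyme genes were above buffer, Col1a2 with its listed 0 among them. Other examples are Ogn with 10, 138 and 10 reads and Fmod with 26, 131 and 24, both chosen after their values were seen. The part of astrocyte and mesenchymal genes in the member values was not tested.

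**Figure D4:**
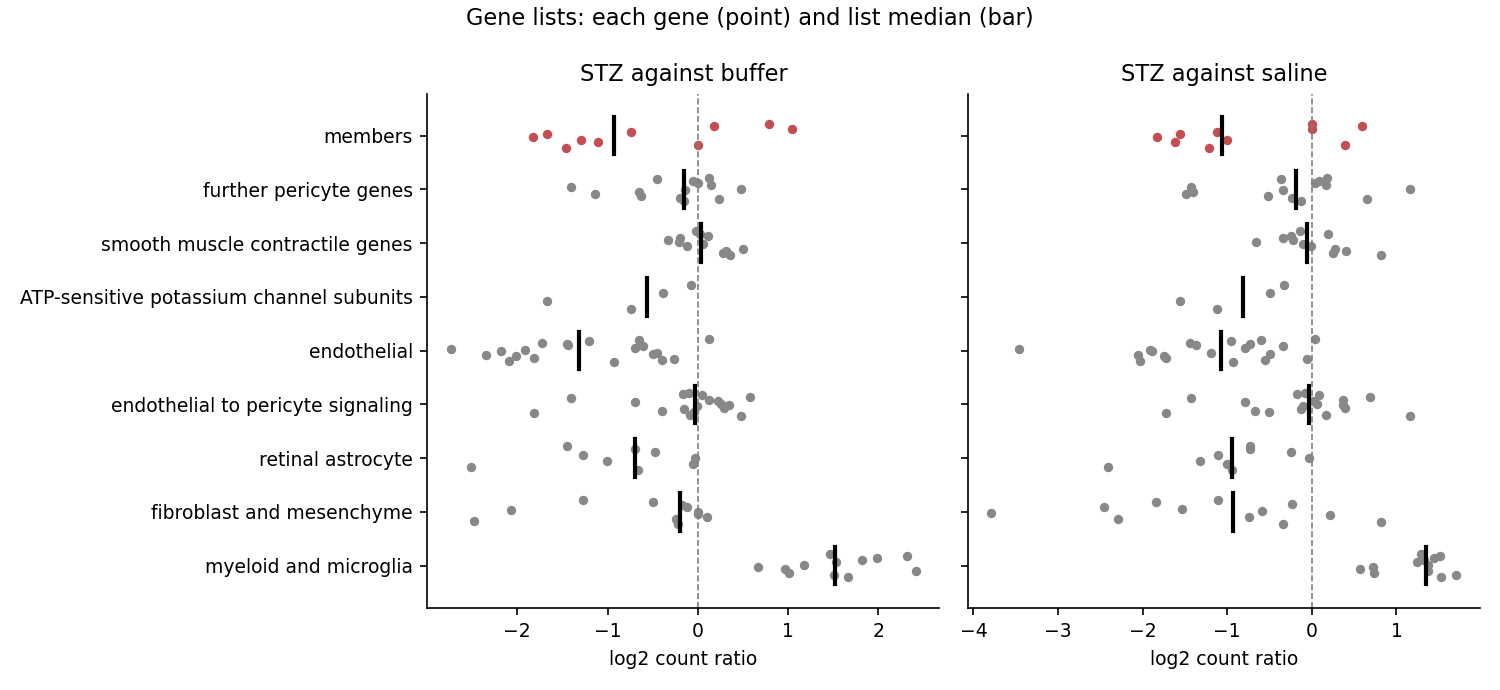
log2 count ratio of each gene over the minimum (points) and the list median (bars) for the members and 8 other lists, in STZ against buffer and STZ against saline. Genes at 0 reads in a library of the comparison are not drawn. The median of the members lies at -0.93 against buffer, beside -1.32 for the endothelial list, while the further pericyte genes have a median of -0.15 and the myeloid list one of 1.52.

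The genes most like Pdgfrb across the 3 libraries were ranked by the distance of their log2 ratios, STZ to buffer and saline to buffer, from those of Pdgfrb, among the other 12814 genes with a mean of at least 50 reads. The nearest was Adamts8, a secreted metalloprotease, at a distance of 0.109 log2 units with 399, 352 and 155 reads. Vwf, the von Willebrand factor of endothelial cells, was also among the first 5, at 0.180 with 194, 186 and 72 reads. The other 3 were LOC103689977 at 0.115, LOC108348142 at 0.167 and Gtpbp6 at 0.183, all with fractional counts, so that their values are less certain. Of the other members only Pdgfb and Abcc9 had enough reads to be ranked, and neither was among the 5. The STZ to buffer ratios of all 5 lay within the counting interval of Pdgfrb itself, 0.275 to 0.477, so their order is not resolved. Abcc9 also lay within it at 0.314, and its saline to buffer ratio of 0.924 lay within that of Pdgfrb, 0.688 to 1.04. Pdgfb, with an STZ to buffer ratio of 0.998, did not.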

How the data were processed

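Total RNA of P4 retina was measured in 3 libraries, 1 per injection. According to the methods and the submitters' processing notes, TruSeq libraries were read on an Illumina HiSeq, checked with FastQC and mapped to rn6 with TopHat2, allowing 2 mismatches, and reads with several locations were discarded. The authors deposited FPKM from their own R script, TPM, and an estimated count per gene. The annotation is not given in the sources used here. The deposited counts are fractional for 12.9 to 13.2% of genes and were rounded to whole numbers, but those of the 10 members are all whole. The depth was 21992749, 21977876 and 22031287 counts in buffer, saline and STZ, and the number of counts alone sets the precision given here.

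Groups came from the labels. Folds were (FPKM + 1)/(FPKM + 1), read at 0.65 and its reciprocal 1.54, as in the methods. Count ratios have exact Clopper-Pearson intervals at 95%, and where the reference library held 3 counts or fewer only a bound is possible. Members of lists needed a mean of at least 10 counts. With 1 library per group no model was fitted. The calculations were tested on simulated data. The simulated counts varied by counting error alone, and the changed genes had a mean of at least 50 counts. The test therefore says nothing on spread between animals or on finding changes in members with fewer counts.

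The members and the 14 other lists were chosen with earlier results of these data known. They are other PDGF genes, ATP-sensitive channel subunits, further pericyte genes, contractile genes, skeletal muscle, endothelium, endothelial to mural signaling, astrocytes, fibroblasts and mesenchyme, myeloid cells, lens crystallins, ciliary, iris and pigment epithelium, blood, and retina. Of the 178 genes in them, 176 were found, by symbol or RefSeq gene ID. Named were all members, up to 4 genes per list that passed the same fold threshold against both controls, the 5 genes nearest to Pdgfrb, and Pdgfra, Pdgfa, Kcnj11, Abcc8, Angpt1, Angpt2, Tek, Notch3, Pecam1 and Cdh5. Other named genes were chosen after their values were seen.

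All 10 members matched RefSeq's GRCr8 tables by gene ID. TMM factors came from edgeR 4.0.16 and median-of-ratios factors from DESeq2 1.42.0 in R 4.3.3. Python 3.11.15, numpy 2.4.6, pandas 2.3.3, scipy 1.17.1 and matplotlib 3.10.9 did the rest. The alternatives tried were thresholds of 2 and 0.5, a pseudocount of 0.1, CPM or TPM in place of FPKM, the TMM and median-of-ratios factors, no minimum or one of 50 counts, leaving out Pdgfb or Acta2, Tagln and Des, the counting interval as the call, and the sum of both controls.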

Additional observations from a re-analysis of the deposited data

How the results depend on the processing

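The counts of members past the fold depended on the added 1. In STZ against buffer, 3 members below 0.65 became 6 with a pseudocount of 0.1, 5 with CPM and either TMM or median-of-ratios factors, 5 by the counting interval, and 1 with a threshold of 0.5 or with a minimum of 50 counts. In STZ against saline, 2 members became 6 with a pseudocount of 0.1 and by the counting interval, 4 with CPM, TPM or CPM with either set of factors, 1 without Acta2, Tagln and Des, and 0 with a threshold of 0.5 or a minimum of 50 counts. Above 1.54, the 0 members became 1 with a pseudocount of 0.1, with TPM and by the counting interval, both in STZ against buffer and in saline against buffer. The other counts stayed within 1.5 times the reported ones, and no median ratio moved by over 1.5 times, although that of saline against buffer went from -0.06 to 0.00 on the log2 scale without Pdgfb. Of 140 alternative values of single members, 132 stayed within counting error and 8 moved, these being the folds of Pdgfrb and Abcc9 with a pseudocount of 0.1 or CPM. Many of the 132 used the TMM or median-of-ratios factors. These factors lay between 0.985 and 1.014, so such values could hardly move and say little on robustness. No value past its threshold crossed 1, but 4 others near 1 did. These were the fold of Anpep against saline with CPM (1.02 to 0.999) and, with both controls summed, the ratios of Tagln and Anpep against saline (0.998 to 1.35 and 1.26) and of Pdgfb against buffer (0.998 to 1.13). Values that rounded to 1.00 are not among the 4. The saline to buffer ratio of Acta2 became 0.985 with TMM and 0.987 with median-of-ratios factors, and the fold of Tagln against saline became 0.999 with CPM. No paired analysis was possible because each group holds 1 library and the labels number no replicates, so no replicate could be left out and the spread between animals is not known. Depth limits Anpep, Kcnj8 and Tagln most, with 11, 20 and 15 reads in buffer.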

Other observations

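Some further mural and matrix genes, chosen after their values were seen, had values worth a look. Ednra, the endothelin receptor through which mural cells contract, had 58 reads in buffer, 59 in saline and 22 in STZ, with a ratio of 0.379 (0.221 to 0.628) against buffer. Rarer pericyte genes had few reads in any library. Foxf2, a transcription factor of brain pericytes, was at 10, 7 and 0 reads, and Higd1b was at 11, 12 and 3. Of the other further pericyte genes under the minimum, Enpep was at 12, 7 and 3 and Tbx18 at 7, 2 and 3. Ggt1 was at 11, 5 and 10, P2ry14 at 7, 11 and 7 and Atp13a5 at 3, 4 and 2, so these rare genes did not all fall in STZ. Col3a1, a fibrillar collagen of vessel walls and mesenchyme, had 83, 73 and 15 reads and a ratio of 0.180 (0.0967 to 0.315) when STZ was set against buffer. Myh11, the smooth muscle myosin heavy chain, lay on the other side, with 317, 230 and 406 reads and a ratio of 1.28 (1.10 to 1.49). The 2 controls also differed for Myh11 by more than counting error, with a saline to buffer ratio of 0.726 (0.610 to 0.863).

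Cd248, a pericyte and fibroblast surface protein, was listed at 102 reads in buffer and at 0 in saline and STZ, and Col1a2 at 0 in buffer and at 59 and 104 in saline and STZ. Both patterns set buffer apart from saline as well as from STZ. What produced these listed zeros was not tested.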
